A study of Drosophila melanogaster with 24 samples.

Results

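The genes described here are 65 Drosophila genes known by a CG number alone, the identifier that a predicted gene receives in the genome annotation. In wing discs with a dmyc transgene their transcripts stood below those of control discs just after a heat shock and above them 12 h later. They were chosen by their ratios at these 2 times, as genes whose symbol is CG plus digits, whose mean log2 ratio over the 6 arrays at 0 h was at most -0.2, and whose mean over the 6 arrays at 12 h was at least 0.2. The array named 9011 genes, of which 3801 carried a CG number. The choice left out 6 genes (CG1542, CG8939, CG11837, CG3071, CG8545 and CG7006), of which CG8545 met both thresholds. In all, 66 of the 3801 CG-numbered genes (1.74%) and 244 of the 5210 genes with a name of their own (4.68%) met the thresholds. The reverse course, at least 0.2 at 0 h and at most -0.2 at 12 h, was found for 6 CG-numbered genes.

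Wing discs are the epithelial sacs of the larva from which the adult wing forms. RNA was taken from discs of 3rd instar larvae carrying tub>dmyc>Gal4, whose discs undergo competition, and from discs with tub>cd2>Gal4 as the control. The tubulin promoter, active in nearly every cell, drives dmyc or cd2 from a cassette that heat shock can remove. Both genotypes were grown at 25 ºC, given a heat shock of 15 min at 37 ºC and sampled at 0, 12, 24 and 48 h, so the heat shock and Gal4 are common to both. Whole discs were extracted, in which cells with and without the cassette lie mixed, so fewer cells of a type and less RNA per cell cannot be told apart. Each of 24 two-colour arrays held dmyc and cd2 RNA, with 6 arrays at each of the 4 times, and the dmyc RNA was in Cy5 on replicates 1 to 3 and in Cy3 on replicates 4 to 6.

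Myc is a transcription factor that drives growth, chiefly through genes of ribosome production, translation and metabolism. In cell competition, cells with less Myc die where they touch cells with more. Many genes with a CG number have homologues of known function, for example in central metabolism, protein synthesis or RNA processing. For 28 of the 65 members such a role was sure enough to be given here, and the other 37 are described by number alone. By role they comprised 8 genes of carbon and energy metabolism, 7 of protein synthesis and folding, 6 of RNA and other nucleic acids, 2 serine proteases or homologues, 2 lipid enzymes and 3 others.

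A positive log2 ratio likely means more transcript in dmyc discs. The basis for this direction is that sample titles put dmyc before cd2, and with the other order every "higher" and "lower" would change places. Of 132 pairs of arrays of the same dye orientation, 8 correlated below -0.3 over all features, each of them an array at 0 h against one at 12 h or 24 h. The lowest values were -0.75 between 0 h replicate 3 and 12 h replicate 3 and -0.66 between 0 h replicate 6 and 12 h replicate 6. Against the 24 h arrays, 0 h replicate 3 correlated at -0.53 with replicate 3 and 0 h replicate 6 at -0.46 with replicate 4. Between opposite dyes, 0 h replicate 3 correlated at -0.83 with 12 h replicate 6. The labels state the dye of every array, and the direction was kept throughout on that basis. A dye label cannot show whether the RNAs, or the sign of a deposited ratio, were exchanged, and this was not tested. With the signs of 0 h replicates 3 and 6 turned, 9 CG-numbered genes met the thresholds, and 1 of them was among the 65. On single arrays the ratios of all features had a standard deviation of 0.18 to 0.29. Precision is limited by how many arrays there are.

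For every array there was 1 of the opposite dye, within its time, that it resembled most, here called its partner. At 0, 12 and 48 h replicate 1 went with 4, replicate 2 with 5 and replicate 3 with 6, and at 24 h replicate 1 went with 5, replicate 2 with 6 and replicate 3 with 4. Partner correlations ran from 0.52 to 0.90 across features. Nothing in the labels tells whether partners share RNA, or whether replicates stem from different animals, and a p-value here therefore measures the spread between these arrays, which may be technical. If partners share RNA, n is 3 and not 6 at each time. Counts are therefore given from all arrays, with a random block for the pairs, and from averages of partners.

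The values at 0 h and 12 h chose the members and are given as a description. The 65 means ran from -0.87 to -0.20 at 0 h, with a median of -0.30, and from 0.20 to 0.60 at 12 h, with a median of 0.26. Of the members, 32 were below 0 on every array measured at 0 h, 38 were above 0 on every array at 12 h, and 17 were both. For 34 the arrays of the 2 times did not overlap. The choice fixes these counts in part, and they were not made over all features. Just inside the 0 h threshold lay CG9330 (-0.20), CG10962 (-0.21), CG1902 (-0.21), CG16959 (-0.21) and CG12702 (-0.22), and just outside lay CG4586, CG44774, CG11444, CG10602 and CG6650, all at -0.20 when rounded. Just inside the 12 h threshold were CG14657, CG9705, CG1636 and CG13690 (all 0.20) and CG1902 (0.21), and just outside were CG6664 and CG18563 (both 0.20), CG14647 and CG5641 (both 0.19) and CG1824 (0.18). The thresholds therefore cut through a continuous range of values.

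The depth of the 0 h dip and the height at 12 h differed between partner pairs. The median of the members at 0 h was -0.06 in the pair of replicates 1 and 4, -0.38 in replicates 2 and 5, and -0.45 in replicates 3 and 6. At 12 h it was 0.16, 0.19 and 0.47 in the same order. The lowest 0 h pair was that of replicates 3 and 6 for 44 members, and the highest 12 h pair was that of replicates 3 and 6 for 52. Below 0 in every 0 h pair were 47 members and above 0 in every 12 h pair were 48, but 8 reached -0.2 in every 0 h pair and 8 reached 0.2 in every 12 h pair. Without replicates 3 and 6 at both times, 33 CG-numbered genes met the thresholds, 21 of them among the 65, including CG8036, CG10576, CG9331, CG6724, CG15098 and CG14218.

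**Figure D1:**
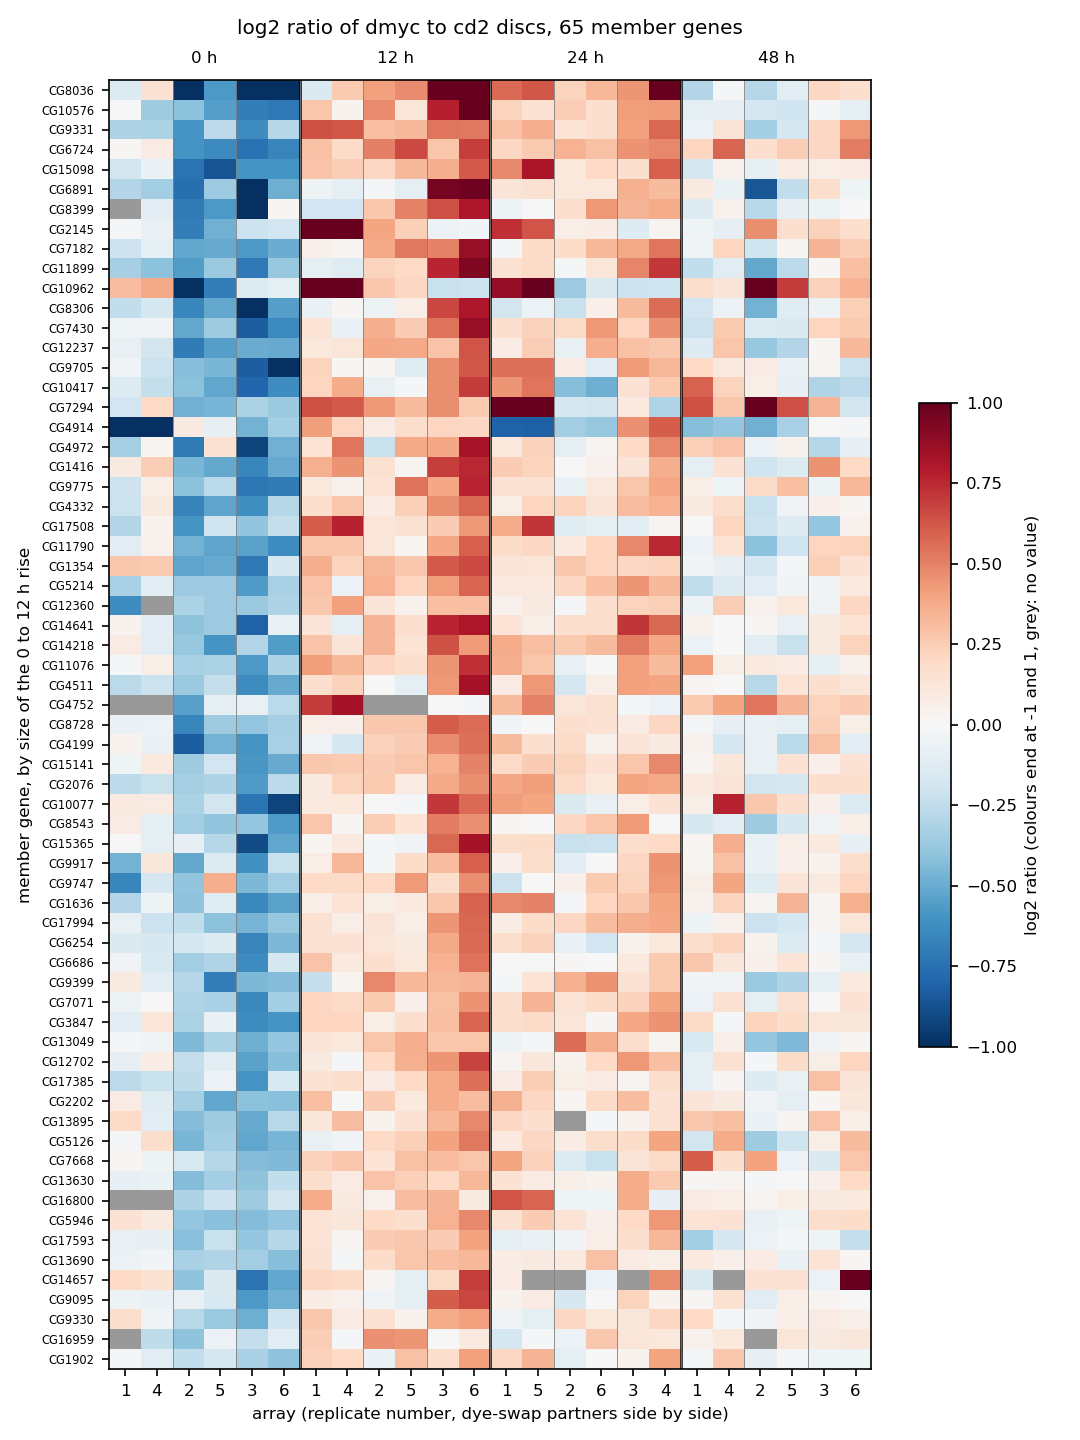
The log2 ratio of dmyc to cd2 discs for each of the 65 genes (rows, by size of the difference between the 12 h and 0 h means) on each of 24 arrays (columns, partners side by side), with blue below 0, red above 0 and grey for no value. The 0 h block is mostly blue, palest in replicates 1 and 4, the 12 h and 24 h blocks are mostly red, and the 48 h block is pale, with the deepest red at 12 h in replicates 3 and 6.

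**Figure D2:**
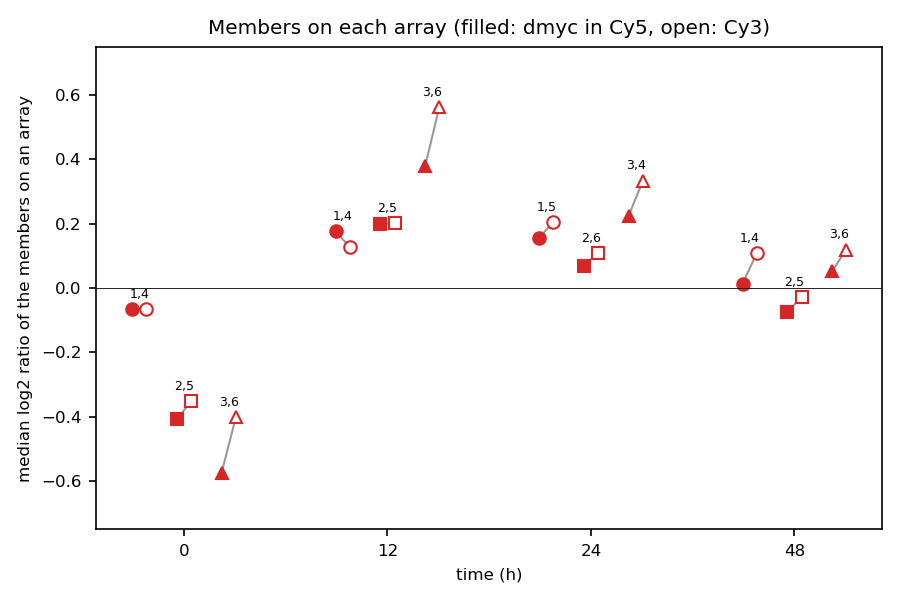
The median log2 ratio of the members on each array, against time, with partners joined by a line and shapes for the 3 pairs of a time. All 6 arrays at 0 h lie below 0, all 6 at 12 h and all 6 at 24 h lie above it, and those at 48 h fall on both sides.

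The ratios stayed mostly positive at 24 h. These arrays took no part in the choice, though some resembled arrays that did. Over all features, 24 h replicate 3 correlated at 0.61 with 12 h replicate 3, and 24 h replicate 4 at 0.62 with 12 h replicate 6. The mean at 24 h was above 0 for 64 of the 65 genes, CG4914 being the exception (-0.22), against 51.7% of all features tested. On every array measured, 26 members were above 0, a count that was not made over all features. The median over all 65 was 0.19, against 0.00 over all 10661 features tested and 0.20 over 241 genes with a name of their own that met the same thresholds. At 24 h, 56 members stood below their 12 h mean, as did 191 of these 241 named genes. A choice by high 12 h means favours such a count. A mean of 0.2 or more was still found for 29 members.

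The transcripts of 13 of 64 members tested were higher in dmyc discs at 24 h (20.3%) and none was lower, at an adjusted p under 0.05 over all features. CG14657 had 3 values at 24 h and was not tested. Over all features, 3.75% were called higher and 4.39% lower at this time, and 36 of the 64 members (56.2%) had an unadjusted p under 0.05, against 24.8% of all features. With partner pairs as a random block, 6 of 64 were called higher (9.38%) and none lower, against 0.619% and 0.994% of all features. With partners averaged, none of the 64 and none of the 10661 features was called in limma, with 14 members (21.9%) and 1435 features (13.5%) at an unadjusted p under 0.05. Among the named genes that met the same thresholds, 43 of 241 were called higher with all arrays and 12 with the block. No difference between the members and these named genes was tested.

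By 48 h most of the ratios lay near 0. The median of the 65 means was 0.04, and 43 members lay within 0.1 of 0. A mean of 0.2 or more remained for 6 members, and 9 had a mean of -0.1 or less. CG6724 was the 1 member of 64 called, higher in dmyc discs, where 3.1% of all features were called higher and 3.19% lower. None was called with the block, which called 0.929% of all features higher and 0.985% lower, or with partners averaged (0.197% and 0.347%). At an unadjusted p under 0.05 stood 6 members with all arrays, 5 with the block and 3 with partners averaged (9.38%, 7.81% and 4.69%), below the 20.7%, 13.6% and 11.8% of all features.

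Between 24 h and 48 h the ratio was smaller at the later time in 54 of 64 members (84.4%), with a median difference of -0.15. It was smaller at 48 h in 50.4% of all features and in 215 of the 241 named genes that met the same thresholds (89.2%). In limma, no single member passed the threshold for this difference, which 0.0938% of all features did, and 16 members (25%) had an unadjusted p under 0.05, all of them lower at 48 h, against 12.5% of all features in either direction. The block gave 0 calls (0.0188% of all features) and 14 members (21.9%, against 6.7% of all features) at an unadjusted p under 0.05, and partners averaged gave 0 and 5 (7.81%, against 5.44%).

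**Figure D3:**
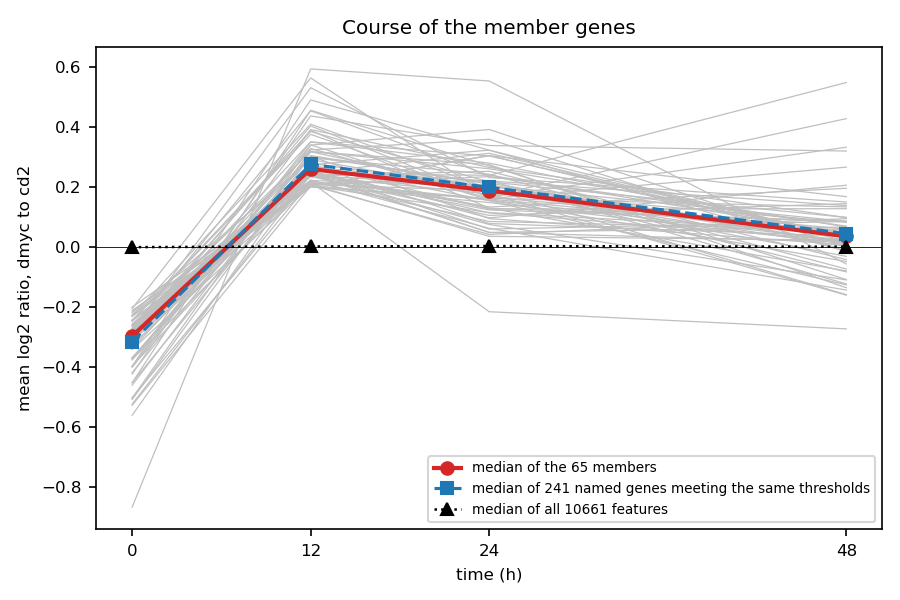
Mean log2 ratio of each member at 0, 12, 24 and 48 h (grey lines), with the median of the 65 members (red), of 241 named genes that met the same thresholds (blue, dashed) and of all features (black, dotted). The red and blue medians run from about -0.3 at 0 h to near 0 at 48 h together, while the median of all features stays at 0.

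The course to 48 h was set beside CG-numbered genes that met 1 threshold alone, as a description. The 140 tested genes that were high at 12 h but not low at 0 h had a median of 0.17 at 24 h and of 0.20 at 48 h, and 31 of them were called higher at 48 h. At 24 h, 27 of these 140 were called higher and 0 lower, beside 13 and 0 of the 64 members tested. The 124 tested genes that were low at 0 h but not high at 12 h had a median of 0.05 at 24 h and of -0.06 at 48 h, where 20 were called lower. At 24 h, 6 of these 124 were called higher and 3 lower. The ratio was smaller at 48 h than at 24 h in 53 of the 140 (37.9%) and in 98 of the 124 (79%). The median of the members at 48 h lay between these groups.

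Among the 8 genes of carbon and energy metabolism, 2 were called higher at 24 h (CG9331 and CG5214), and all 8 stood lower at 48 h than at 24 h. Their medians were -0.37, 0.31, 0.26 and -0.02 at 0, 12, 24 and 48 h. CG8036 encodes transketolase, an enzyme of the pentose phosphate pathway, and differed most of all members between 0 h and 12 h. Its ratio ran from -1.93 to 0.16 at 0 h (median -0.84), from -0.14 to 1.38 at 12 h (median 0.44), from 0.22 to 1.15 at 24 h (median 0.50) and from -0.29 to 0.20 at 48 h (median -0.06). All 6 arrays at 24 h were above 0, but the mean of 0.55 ± 0.20 (limma SE, n = 6 arrays) did not pass the threshold (adjusted p 0.093). The pair of replicates 3 and 6 stood at -1.78 at 0 h and 1.28 at 12 h, and the pair of replicates 1 and 4 at 0.01 and 0.06.

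CG9331, the homologue of glyoxylate and hydroxypyruvate reductase, ran from -0.62 to -0.27 at 0 h (median -0.31), from 0.30 to 0.64 at 12 h (median 0.53), from 0.13 to 0.57 at 24 h (median 0.33) and from -0.34 to 0.43 at 48 h (median 0.04). No array at 0 h overlapped with the arrays at 12 h or 24 h, a gap that the choice fixes in part. The 48 h arrays lay on both sides of 0. It was higher in dmyc discs at 24 h by 0.32 ± 0.07 (SE, n = 6, adjusted p 0.0106, 6 of 6 arrays), and with the block the adjusted p was 0.043. The call was lost without the 24 h pair of replicates 1 and 5 (adjusted p 0.0799) or 3 and 4 (0.118).

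CG5214 encodes dihydrolipoyl succinyltransferase, the E2 component of the alpha-ketoglutarate dehydrogenase complex of the citric acid cycle. Its arrays ran from 0.09 to 0.44 at 24 h (median 0.25) and from -0.25 to 0.10 at 48 h (median -0.07). At 0 h, where the choice took low means, they ran from -0.56 to -0.11 (median -0.34). The 24 h ratio was 0.24 ± 0.06 (SE, n = 6, adjusted p 0.0214, 6 of 6 arrays). It did not pass with the block (adjusted p 0.105), nor without 24 h replicate 3 (0.0874), 4 (0.0548) or 6 (0.0518).

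CG7430 encodes dihydrolipoamide dehydrogenase, the E3 component that this complex shares with pyruvate dehydrogenase. Its 24 h arrays lay between 0.16 and 0.45 (median 0.22), all above 0, and the mean of 0.28 ± 0.10 did not pass (adjusted p 0.0858). CG9399, a subunit of the carrier that brings pyruvate into the mitochondrion, had a mean of 0.22 ± 0.09 at 24 h (adjusted p 0.125) and of -0.12 ± 0.09 at 48 h (adjusted p 0.484). CG11899, which makes phosphoserine in serine synthesis, stood at -0.46, 0.32, 0.28 and -0.14 at the 4 times. CG5946, a cytochrome b5 reductase, stood at 0.20 at 24 h and 0.09 at 48 h. CG8728, the alpha subunit of the peptidase that removes mitochondrial targeting sequences, stood at 0.10 at 24 h and 0.01 at 48 h. None of these 5 genes passed at 24 h or 48 h.

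The 7 genes of protein synthesis and folding had medians of -0.30, 0.40, 0.20 and 0.06 at the 4 times, with 2 called higher at 24 h (CG6724 and CG13630) and 1 at 48 h (CG6724). CG6724 is the homologue of WDR12, a protein needed in mammals to assemble the large ribosomal subunit. Its ratio ran from -0.75 to 0.08 at 0 h (median -0.62), from 0.20 to 0.69 at 12 h (median 0.40), from 0.21 to 0.48 at 24 h (median 0.32) and from 0.17 to 0.58 at 48 h (median 0.23). It was above 0 on all 18 arrays after 0 h, of which those at 12 h took part in the choice. The ratio was 0.34 ± 0.09 (SE, n = 6, adjusted p 0.025) at 24 h and 0.32 ± 0.09 (adjusted p 0.0364) at 48 h, with a difference of -0.02 ± 0.13 between the times (adjusted p 0.976). Neither call held with the block (adjusted p 0.0821 and 0.106). The 24 h call was lost without 24 h replicate 1 (0.0552), 2 (0.0576), 3 (0.0783), 4 (0.0616) or 5 (0.0515), and the 48 h call without any one of the 6 arrays of that time (ratios from 0.28 to 0.35, adjusted p from 0.059 to 0.119).

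CG13630 encodes methionine aminopeptidase 1, which removes the first methionine from new proteins. Its arrays ran from 0.04 to 0.37 at 24 h (median 0.12) and from -0.02 to 0.20 at 48 h (median 0.02). At 0 h, where the choice took low means, they ran from -0.43 to -0.06 (median -0.29). The 24 h ratio was 0.16 ± 0.05 (SE, n = 6, adjusted p 0.0439), and 0.11 without replicate 3 (adjusted p 0.178). The call was also lost with the block (0.138), without 24 h replicate 1 (0.0952), 4 (0.119) or 5 (0.0694), without 0 h replicate 6 (0.0521), 12 h replicate 1 (0.0508), 2 (0.0504), 3 (0.052) or 5 (0.051), and without 48 h replicate 5 (0.0506).

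CG10576 is the homologue of PA2G4, which in mammals binds ribosomes and regulates growth. Its ratio ran from -0.71 to 0.00 at 0 h (median -0.48), from 0.04 to 1.05 at 12 h (median 0.38), from 0.15 to 0.43 at 24 h (median 0.24) and from -0.20 to -0.01 at 48 h (median -0.09). All 6 arrays at 24 h thus lay above 0 and all 6 at 48 h below it. The difference of -0.38 ± 0.14 between these times did not pass the threshold (adjusted p 0.244), nor did the ratio at 24 h (0.27 ± 0.10, adjusted p 0.0818) or at 48 h (-0.11 ± 0.10, adjusted p 0.579).

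CG7182, of the Hsp70 chaperone family, had a mean of 0.27 ± 0.09 at 24 h (adjusted p 0.0646) and was above 0 on 5 of 6 arrays. CG1416, the homologue of Aha1, which stimulates the ATPase of Hsp90, had a mean of 0.40 at 12 h, 0.17 at 24 h and 0.06 at 48 h. CG1354, the homologue of the GTPase-family ATPase OLA1, stood at 0.20 ± 0.10 at 24 h (adjusted p 0.21) with all 6 arrays above 0. CG9330, an ABC protein of subfamily F, a group that acts on translation and not in transport, stood at 0.09 at 24 h.

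**Figure D4:**
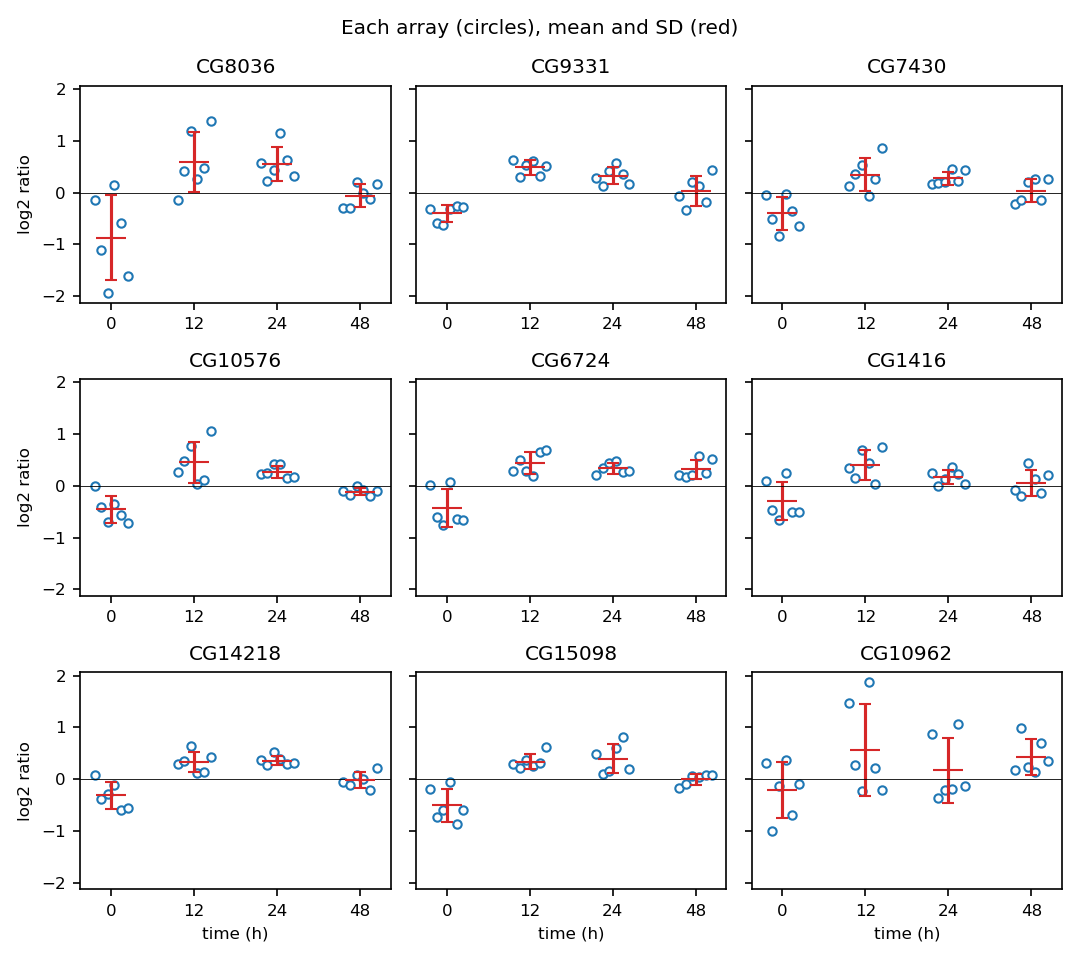
The log2 ratio of 9 members on each array (circles) at the 4 times, with the mean and SD in red, on a common axis. CG9331 has narrow groups at 0 h and 12 h, and CG14218 has one at 24 h. CG6724 stays above 0 at 48 h, CG10576 is below 0 on all 6 arrays at 48 h, and CG8036 and CG10962 spread widely at 0 h and 12 h.

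None of the 6 genes of RNA and other nucleic acids passed the threshold at 24 h or 48 h, and 3 of them had an unadjusted p under 0.05 at 24 h. Their medians were -0.28, 0.25, 0.18 and 0.07. CG14641 is the homologue of RBM22, a spliceosome protein, and its 24 h arrays ran from 0.06 to 0.71 (median 0.17), all above 0. Its mean was 0.30 ± 0.11 (adjusted p 0.0837). CG9705, a cold shock domain protein, ran from -0.11 to 0.55 at 24 h (median 0.38), with 5 of 6 arrays above 0 and a mean of 0.31 ± 0.11 (adjusted p 0.0962). The splicing factor gene CG6686 (SART1 in mammals) stood at 0.06 at 24 h and 0.09 at 48 h, and the DEAD-box helicase gene CG10077 at 0.13 and 0.20. CG13690, the catalytic subunit of ribonuclease H2, stood at 0.12 and 0.05.

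The 2 genes of the serine protease family, CG14218 and CG4914, stood at 0.36 and -0.22 at 24 h. CG14218 is a serine protease homologue, a protein with the protease fold. Its ratio ran from -0.59 to 0.08 at 0 h (median -0.34), from 0.13 to 0.63 at 12 h (median 0.31), from 0.27 to 0.52 at 24 h (median 0.35) and from -0.22 to 0.22 at 48 h (median -0.03). At 24 h it had the second lowest adjusted p among the members, and every 24 h array lay above every 48 h array. The ratio there was 0.36 ± 0.07 (SE, n = 6, adjusted p 0.00427, 0.0228 with the block). Among the 13 members called at 24 h it was the 1 whose call was kept without each single array and without each partner pair, and it was lost with partners averaged (adjusted p 0.209). Its difference of -0.37 ± 0.10 between 24 h and 48 h did not pass (adjusted p 0.115).

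CG4914, a serine protease, was the 1 member below 0 at 24 h. Its arrays ran from -0.82 to 0.60 at that time (median -0.36) and from -0.48 to -0.01 at 48 h (median -0.36), so that those at 24 h lay on both sides of 0 and all 6 at 48 h below it. Neither time passed the threshold (-0.22 ± 0.16, adjusted p 0.437, and -0.27 ± 0.16, adjusted p 0.361).

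Of the lipid enzymes and the other genes with a role, CG15141 was called. CG15141 is the homologue of UBR7, a protein with a UBR box, the domain that reads degradation signals in other family members. Its arrays ran from -0.58 to 0.10 at 0 h (median -0.27), from 0.26 to 0.49 at 12 h (median 0.28), from 0.14 to 0.48 at 24 h (median 0.24) and from -0.07 to 0.15 at 48 h (median 0.08). All arrays at 12 h and 24 h were above all those at 0 h, a gap that the choice fixes in part. The 24 h ratio was 0.26 ± 0.06 (SE, n = 6, adjusted p 0.0119, 0.043 with the block), and the call was lost without the 24 h pair of replicates 1 and 5 (0.0664) or 3 and 4 (0.113). CG6891, the homologue of the actin-binding protein coactosin, had means of -0.56, 0.28, 0.19 and -0.16. At 12 h 4 of its 6 arrays were below 0 (median -0.03), while the pair of replicates 3 and 6 stood at 0.96. It was above 0 on all 6 arrays at 24 h, without passing (adjusted p 0.42). CG10417, a phosphatase of the PP2C family, stood at 0.08 at 24 h with arrays from -0.49 to 0.54. The fatty acyl-CoA reductase gene CG8306 stood at 0.08 and the desaturase gene CG9747 at 0.13 at that time, and neither passed.

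Among the 36 tested members with no role given, 7 were called higher at 24 h (CG15098, CG2076, CG1636, CG17994, CG7071, CG2202 and CG11790). CG15098 ran from -0.86 to -0.07 at 0 h (median -0.59), from 0.21 to 0.62 at 12 h (median 0.30), from 0.10 to 0.81 at 24 h (median 0.34) and from -0.17 to 0.08 at 48 h (median 0.06). Every array at 24 h was above every array at 48 h. The arrays at 12 h were above those at 48 h too, and the arrays at 12 h and 24 h were above every array at 0 h. The choice fixes the gaps with 0 h or 12 h arrays in part. Its 24 h ratio of 0.39 ± 0.09 (SE, n = 6, adjusted p 0.00897, 0.0389 with the block) was the highest of the 13 called. CG2076 ran from 0.10 to 0.42 at 24 h (median 0.38), with a ratio of 0.31 ± 0.06 (adjusted p 0.00394, 0.022 with the block). CG1636 ran from -0.02 to 0.49 at 24 h (median 0.33), with a ratio of 0.31 ± 0.07 (adjusted p 0.00944, 0.0389 with the block). These 3 genes kept their calls with the block. Without the 24 h pair of replicates 1 and 5 the call was lost for CG15098 (adjusted p 0.146), CG2076 (0.065) and CG1636 (0.14). CG1636 also lost it without the 24 h pair of replicates 3 and 4 (0.0522).

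The other 4 did not pass with the block. CG17994 stood at 0.25 ± 0.06 (SE, n = 6, adjusted p 0.0181), CG7071 at 0.24 ± 0.06 (0.0158), CG2202 at 0.20 ± 0.06 (0.0351) and CG11790 at 0.32 ± 0.10 (0.04), each above 0 on 6 of 6 arrays. In the RefSeq gene table CG7071 spans the same bases as the gene Muted, so a probe may not tell them apart. The 24 h call of CG15098 was lost without 24 h replicate 5 (adjusted p 0.055), of CG1636 without replicate 1 (0.0526), of CG7071 without replicate 5 (0.0573), and of CG17994 without replicate 3 (0.0606) or 4 (0.0563). CG2202 lost it without replicate 1 (0.113), 3 (0.0917), 4 (0.0649), 5 (0.101) or 6 (0.0746), and CG11790 without replicate 1 (0.0704), 3 (0.122), 4 (0.146), 5 (0.066) or 6 (0.0506).

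Of the 15 members with the largest difference between 0 h and 12 h, 4 had no role given: CG15098, described above, CG10962, described below, CG8399 and CG12237. CG8399 stood at -0.51, 0.31, 0.21 and -0.08, and CG12237 at -0.42, 0.32, 0.19 and -0.03 at the 4 times. Neither passed at 24 h or 48 h. Over the 29 tested members that were neither called at 24 h nor given a role, 24 h means ran from 0.04 (CG9095) to 0.24 (CG7294).

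**Figure D5:**
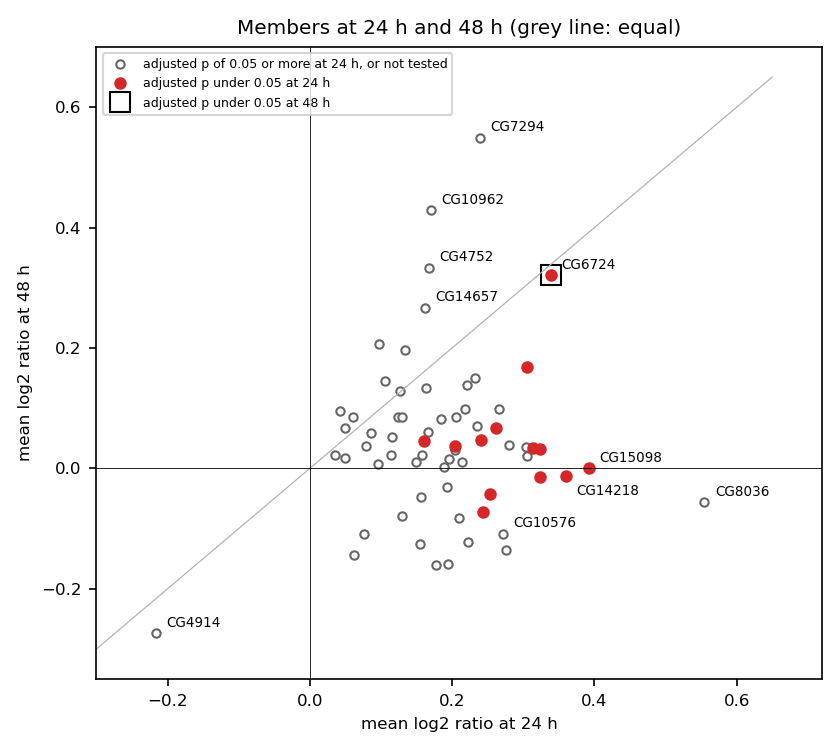
Mean log2 ratio of each member at 24 h (horizontal axis) and at 48 h (vertical axis), with filled red points for the 13 called at 24 h and a square for CG6724, called at 48 h. Most points lie right of 0 and below the grey line of equal values, while CG7294, CG10962 and CG4752 lie above it and CG4914 lies left of 0.

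A few members had another profile across pairs. CG10962 (2 features on the array) and CG2145, which encodes an endoribonuclease of the EndoU family, were high at 12 h chiefly in the pair of replicates 1 and 4 (1.67 and 1.33), and stood at -0.22 and -0.05 in replicates 3 and 6. At 24 h both were high in the pair of replicates 1 and 5 (0.97 and 0.68) and stood between -0.25 and 0.07 in the other pairs. CG7294, with no role given, stood at 1.00 in that pair and at -0.18 and -0.10 in the others, and at 48 h it had the highest mean of all members (0.55 ± 0.17, adjusted p 0.0568), with 1.11 in the pair of replicates 2 and 5. CG17508 and CG16800 had 0.54 and 0.61 in the 24 h pair of replicates 1 and 5, against -0.11 to 0.14 in the other pairs. CG4914 ran the other way, with -0.81 in that pair and 0.53 in replicates 3 and 4.

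The fat body, a larval organ that lies close to the discs, has markers of which 6 of 10 listed were measured (Fbp1, Fbp2, apolpp, Adh, Lip3 and Yp1). Their mean ratio was highest in the same pairs: 0.82, -0.74 and 0.29 at 0 h and 0.90, 0.25 and -0.29 at 12 h in replicates 1 and 4, 2 and 5, and 3 and 6. At 24 h it was 1.04 in replicates 1 and 5, -0.23 in 2 and 6, and -0.57 in 3 and 4, and at 48 h 0.67, 1.27 and 0.43. Over single arrays it ran from -0.75 to 0.84 at 0 h, from -0.31 to 1.01 at 12 h, from -0.63 to 1.08 at 24 h and from 0.36 to 1.33 at 48 h. Lip3 and Yp1 had means within 0.04 of 0 at every time. The part of fat body RNA in the ratios of these members was not tested. The members as a whole had their lowest 24 h pair median (0.10) in replicates 2 and 6 and their highest (0.32) in replicates 3 and 4, where the fat body mean was lowest.

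Markers of other tissues had smaller mean ratios, except for salivary gland. Of the listed genes, 12 of 15 for wing disc epithelium, 8 of 9 for trachea, 6 of 10 for hemocytes and 4 of 7 for disc-associated myoblasts were tested, and their medians at 24 h and 48 h lay between -0.03 and 0.03. At 0 h trachea had the lowest of these medians (-0.19), with array means from -0.34 to -0.02, and wing disc epithelium stood at -0.08, with array means from -0.27 to 0.04. In replicates 3 and 6 the mean of the trachea markers was -0.24 at 0 h and 0.20 at 12 h, and that of the wing disc markers -0.19 and 0.21, the same signs as the members in those pairs. Both thresholds of the members were met by 2 trachea markers, verm (-0.50 and 0.50) and serp (-0.23 and 0.28), and by 2 wing disc markers, nub (-0.26 and 0.29) and ap (-0.25 and 0.24). Other markers of these lists ran the opposite way, such as Gasp of trachea (0.34 and -0.16) and vg of wing disc (0.29 and -0.25). Over all arrays the medians at 12 h were 0.05 for trachea and 0.00 for wing disc epithelium. Array means of hemocyte and myoblast markers lay between -0.38 and 0.27 over the 4 times. The 4 of 7 salivary gland genes tested had a median of -0.16 at 24 h and of -0.44 at 48 h, with a mean of -1.43 in the 24 h pair of replicates 1 and 5 and of -2.34 in the 48 h pair of replicates 1 and 4. Their array means ran from -1.63 to 0.01 at 24 h and from -2.41 to 0.07 at 48 h. Ratios give no level, so the tissue itself could not be checked from these values, and the part of these markers in the members' ratios was not tested.

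The genes of 2 further lists were read from the same fit. Of 44 listed genes of ribosome biogenesis, 34 were tested, with medians of 0.03, 0.17, 0.11 and 0.16 at the 4 times. At 24 h 1 was called higher and 1 lower, at 48 h 12 were called higher, and 4 met both thresholds of the members. The list as a whole thus stood near 0 at 0 h and above 0 at 48 h, whereas the median of the members stood at -0.30 and 0.04. Of 16 heat shock genes, 8 were tested, with medians of -0.05, 0.24, 0.07 and 0.13, and 1 met both thresholds.

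The members were spread over the genome. Of the 64 found in the RefSeq table, 16 lie on the X chromosome (25%), 11 on 2L, 10 on 2R, 13 on 3L, 13 on 3R and 1 on chromosome 4. Of all CG-numbered genes matched there, 18.8% lie on X. The median span of the members, from first to last base of the gene, was 2364 bp, against 1892 bp for 3465 CG-numbered genes.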

How the data were processed

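The deposited values are log2 ratios as far as they show: array medians ran from -0.01 to 0.008 and values from -7.19 to 5.68. How the authors scanned, corrected, normalized or filtered the arrays was not given in the sources used here. Base 2 was taken, as no base was given. Per the labels' protocols, RNA was amplified linearly in 2 rounds, which can distort ratios of long against short transcripts, before Cy3 or Cy5 labelling. No signal over background is given, so the depth behind a feature is unknown.

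Of 12359 features, 169 at inferred control positions were left out. The platform annotation gave 10289 features 1 gene, 56 several and 1845 none. Arrays were centred on their median and features of a gene averaged (61 members have 1 feature, 4 have 2 or more, 58 were measured on all 24 arrays). Features with 4 or more values at each time (10661) entered limma (version 3.58.1, under R 4.3.3), with 1 coefficient per time and 1 for dye. Tested were 24 h and 48 h against 0 and 48 h minus 24 h, with Benjamini-Hochberg adjustment over all features. The 0 h and 12 h values chose the members and were not tested. The partner correlation fitted was 0.443. Fits were tested on simulated data.

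Named are all members called, the 15 with the largest rise, the 5 nearest each threshold on either side and those with a known role. Those in the paragraph on pair profiles, the comparison with genes that met 1 threshold, and partner pairs were chosen after values were seen. The members and lists were chosen with earlier results of these data known. RefSeq names and arms are from Release 6. The dm transcript, promoters and protein sequences were not analysed here.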

Additional observations from a re-analysis of the deposited data

Results flagged for a closer look

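Of 156 groups of arrays of a named gene at 1 time, 4 held an array whose gap to its nearest neighbour was large for the range of its group, and chance flags about 1 in 20 groups. CG2076 stood at -0.57 on 0 h replicate 3, where the other 5 arrays lay between -0.33 and -0.22. CG15098 stood at 0.62 on 12 h replicate 6, against 0.21 to 0.36 on the others. CG13690 stood at 0.29 on 24 h replicate 6, against 0.06 to 0.10, and CG13630 stood at 0.20 on 48 h replicate 6, against -0.02 to 0.05.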

How the results depend on the processing

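Of 13 members called at 24 h and 1 at 48 h, quantile normalization gave 20 and 3, partner pairs as a random block 6 and 0, partners averaged 0 and 0, and the 24 h and 48 h arrays alone 21 and 2. Leaving out 1 array or pair gave 3 to 19 at 24 h, 0 to 3 at 48 h and 0 to 3 for the difference. At 24 h the lowest counts were 3 without replicates 1 and 5 and 4 without replicates 3 and 4. Single arrays left out at 24 h gave 8 without replicate 1, 7 without 3, 8 without 4 and 7 without 5. Of the 21 genes that met the thresholds also without replicates 3 and 6 at 0 h and 12 h, 4 were called at 24 h and 1 at 48 h. The replicate block gave 13 calls at 24 h (without CG13630, adjusted p 0.0618, and with CG16800, 0.0362) and 0 at 48 h. Whether these numbers pair the samples is not known. Deviations of same-numbered arrays correlated between -0.48 and 0.50, and 15 of 36 were over 0.1. Differently numbered arrays were not set beside them, so these values cannot decide it. Member medians ran from 0.14 to 0.24 at 24 h and from 0.01 to 0.08 at 48 h with an array or pair left out.

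The 65 genes became 36 with quantile normalization, 33 with both dye orientations required, 33 without replicates 3 and 6 at 0 h and 12 h, and 9 with 0 h replicates 3 and 6 turned. They were 30 to 122 with an array or pair left out, namely 42 without 12 h replicate 6, 30 without 12 h replicates 3 and 6, and 122 without 0 h replicates 1 and 4.

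Over all features, 868, 671 and 10 calls at 24 h, at 48 h and for the difference became 172, 204 and 2 with the random block and 0, 58 and 0 with partners averaged. At 48 h, 307 were called, and 1 for the difference, with the 24 h and 48 h arrays alone. The difference gave 5 for features on all 24 arrays, 3 with no dye coefficient and 15 with the replicate block. Ranges with an array or pair left out were 139 to 1063, 235 to 818 and 2 to 315. For single members, 6132 values were read under alternatives, of which 99 lost a call and 63 gained one, the gains for 17 members. Only the 13 calls at 24 h and the 1 at 48 h could be lost, so 6132 is not the base of the losses. Each of these calls was read with 24 single arrays left out, 12 pairs left out and 12 other settings. No ratio called with all arrays changed sign, and changes of sign were not counted for ratios without a call. The causes were not tested. The promoter motif count was not run.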
